A study of Rattus norvegicus with 311 samples.

Results

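Probes for the insulin-like growth factor (IGF) axis were followed through rat liver cell cultures that aged for a week and were exposed to 4 compounds. The axis was taken as the ligands Igf1 and Igf2, the acid-labile subunit Igfals and the binding proteins Igfbp1 to Igfbp7. Members were found by gene symbol, and every probe row bearing one of those symbols was kept. Of the 10 named genes, 9 had a probe, 1 each, so that the members were 9 of 22253 probe rows. Igfbp4 was not analysed here.

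Primary hepatocytes from male Sprague Dawley rats were plated on collagen in 96-well plates, either together with non-parenchymal liver cells (co-culture, 155 libraries) or alone (monoculture, 156 libraries). Wells received 1 of 4 compounds for 24 h and were lysed on day 1, 3 or 7 after plating. The doses were 10, 100 and 1000 µM gemfibrozil, a fibrate, 0.01, 0.1 and 1 µM GW7647, a synthetic agonist of the nuclear receptor PPARα, 1, 10 and 30 µM ketoconazole, an azole antifungal, and 0.1, 1 and 10 mM phenobarbital, a classical inducer of hepatic drug metabolism. Vehicle wells, labelled as untreated vehicle controls, gave the reference in both cultures on each day. All cells came from 1 commercial supplier, and the labels name no genotype, age or cell lot, nor how many animals a group represents. RNA was read with TempO-Seq, in which pairs of short probes are ligated on their target RNA and counted, so that a value is a count of 1 probe and not of a whole transcript. The 311 libraries fell into 78 groups of 3 to 5, with 412414 to 12272575 counts each (median 6054414). Levels are given in CPM, counts scaled to a library total of 1000000, after scaling by trimmed mean of M-values (TMM). CPM values of different probes cannot be ranked as RNA amounts, because probes differ in yield.

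IGF-I and IGF-II are carried in blood by the binding proteins. Most circulating IGF travels in a ternary complex of ligand, IGFBP-3 or IGFBP-5 and the acid-labile subunit. In the adult liver hepatocytes are the main source of IGF-I and of the acid-labile subunit, both under growth hormone control, and of IGFBP-1, which insulin represses. IGFBP-7 binds IGFs weakly and is known as a product of vascular, stromal and activated stellate cells. Igf2 is an imprinted gene with high expression in fetal rat liver and little after weaning.

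The upstream sequences of 3 binding protein genes are shown. Igfbp1 and Igfbp3 are neighbours on opposite strands of chromosome 14. In vehicle wells Igfbp3 passed as higher on day 7 than on day 1 in co-culture, and Igfbp1 passed in neither culture. The genes were not tested against each other. Igfbp6 also rose. Igfbp1 holds the insulin response element for which the gene is known, and Igfbp6 holds a forkhead core. Sequences are the 250 bases before the annotated start in the RefSeq GRCr8 table, 5′ to 3′ on the gene's strand, and capitals mark letters found by an exact search.
Igfbp1 (chr14:86261027-86261276, plus strand): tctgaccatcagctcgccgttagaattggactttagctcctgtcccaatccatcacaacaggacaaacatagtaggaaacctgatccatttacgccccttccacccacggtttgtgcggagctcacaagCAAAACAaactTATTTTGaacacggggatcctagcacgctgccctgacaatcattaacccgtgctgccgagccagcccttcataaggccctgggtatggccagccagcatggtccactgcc
Igfbp3 (chr14:86277945-86278194, minus strand): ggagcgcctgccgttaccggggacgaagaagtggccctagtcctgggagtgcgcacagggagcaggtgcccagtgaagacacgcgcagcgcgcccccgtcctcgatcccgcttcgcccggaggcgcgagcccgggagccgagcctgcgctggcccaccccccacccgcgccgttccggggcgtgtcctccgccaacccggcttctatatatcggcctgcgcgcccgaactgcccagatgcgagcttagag
Igfbp6 (chr7:135154669-135154918, plus strand): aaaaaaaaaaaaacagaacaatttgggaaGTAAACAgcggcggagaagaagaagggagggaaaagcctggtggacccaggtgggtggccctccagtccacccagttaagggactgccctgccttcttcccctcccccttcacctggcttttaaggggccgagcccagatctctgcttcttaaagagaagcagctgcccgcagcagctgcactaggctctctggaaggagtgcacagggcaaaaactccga
The capitals in Igfbp1 are CAAAACA, from base -121 to base -115 before the start, and TATTTTG, from base -110 to base -104, which do not overlap. CAAAACA, searched on both strands, stood in 1826 of 33469 rat promoters of that length (5.46%), and TATTTTG in 4.46%. The capitals in Igfbp6 are GTAAACA, a forkhead core, from base -221 to base -215, which 3.21% of all promoters held. Among the members' sequences in the table CAAAACA also stood before Igf1, from base -67 to base -61. TTCNNNGAA, the core of STAT sites and its own reverse complement, occurred in 7.67% of promoters and before no member. The letters GGAATG (12.1% of promoters) stood before Igf2, and TGACTCA (4.05%) and TATAAA (12.9%) stood before no member. The Igfbp1 stretch had 52.8% G and C and 9 CpG pairs, and the Igfbp3 stretch 71.6% and 31, against medians of 51.2% and 5 over all promoters. A match describes letters in a window and says nothing of binding.

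Cell type markers were read first, since several members are products of different liver cells. Hepatocyte markers were present in both cultures: albumin (Alb) ran from 4254 to 7749.6 CPM in co-culture and from 5093 to 6705 CPM in monoculture vehicle wells of day 1. Summed macrophage markers were 979 to 1975 CPM in co-culture and 349 to 758 CPM in monoculture vehicle wells on day 7, without overlap, and 125 to 232 CPM against 116 to 247 CPM on day 1, with overlap. Stellate cell and myofibroblast markers were not absent from monoculture. Their summed level there was 113 to 444 CPM on day 1, then 696 to 1393 CPM at day 3 and 1868 to 16351 CPM at day 7. Day 3 libraries of plate 9, 9 in number and all with gemfibrozil or GW7647, had no vehicle well on their plate and are named where a value rests on them. The fits used probes that passed a minimum of 10 counts in enough libraries. Of the 9 members, 5 passed in the vehicle fit, 5 on day 1, 6 on day 3 and 7 on day 7, and Igf2 passed in none of these.

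Over all 311 libraries Igfbp1 and Igfbp7 were read in every one, at 57.7 to 3159 CPM (median 619) and 2.62 to 1372 CPM (median 54.9). Igfals was at 0 in 6 libraries with a median of 10.6 CPM and a maximum of 67.6 CPM, and Igfbp3 at 0 in 3 with a median of 6.5 CPM and a maximum of 252 CPM. Igfbp6 was at 0 in 105 libraries and reached 17.2 CPM, and Igf1 was at 0 in 148.

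Over a week in vehicle wells Igfbp7 and Igfbp6 rose and Igfals fell in both cultures between day 1 and day 7. Igfbp3 rose in co-culture, Igfbp1, the insulin-repressed binding protein, did not pass the test, and the other 4 members were too sparse to be tested there. Of the 5 members tested by edgeR's quasi-likelihood test, 3 passed in monoculture and 4 in co-culture at an adjusted p under 0.05, adjusted over all 11823 probes. Of all probes, 22.4% passed in monoculture and 22.8% in co-culture. Igfbp6 met the filter of that fit through its day 7 wells. A rise was the only call open to it, and it should be left out of this comparison. In bulk lysates fewer cells of a type and less RNA per cell cannot be told apart, and this holds for every value below.

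Igfbp7 had the clearest rise. In co-culture, day 1 vehicle wells held 58.7, 11.2, 31.8 and 14.3 CPM, day 3 wells 96.6, 75.6, 99.2 and 68.0 CPM and day 7 wells 415, 472, 1226 and 324 CPM, given in the order of plates 1, 3, 5 and 7. In monoculture, day 1 vehicle wells held 72.2, 12.6, 29.3 and 2.62 CPM, day 3 wells 112, 34.8, 45.4 and 45.1 CPM and day 7 wells 409, 157, 586 and 191 CPM. Every day 7 well lay above every day 1 and day 3 well of its culture. Day 7 exceeded day 1 by a log2 fold change of 4.41 ± 0.76 (SE, adjusted p = 0.000251, n = 4 per day, edgeR) in co-culture and 3.58 ± 0.73 (adjusted p = 0.0013) in monoculture. The step from day 3 to day 7 passed as well, by 2.79 ± 0.7 in co-culture (adjusted p = 0.0105, 18.5% of all probes) and 2.5 ± 0.7 in monoculture (adjusted p = 0.0199, 15.7% of all probes). Without plate 5 the co-culture step had an adjusted p of 0.0713, and the monoculture step was lost without plate 3 or plate 5 and with the number of probes detected as a covariate. From day 1 to day 3 neither culture passed (adjusted p = 0.135 in co-culture and 0.422 in monoculture), and with the plate as a block co-culture did (log2 1.95, adjusted p = 0.00974).

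Igfbp6, a binding protein with a preference for IGF-II, was near the counting floor on day 1. It passed the filter of the vehicle fit through its day 7 wells. Its counts by plate in co-culture vehicle wells were 2, 3, 0 and 3 on day 1, 0, 12, 4 and 6 on day 3 and 20, 89, 24 and 77 on day 7. In monoculture vehicle wells they were 2, 2, 0 and 0, then 0, 3, 7 and 3, then 22, 7, 15 and 29. The lowest day 7 level, 2.84 CPM in co-culture and 1.09 CPM in monoculture, was above the highest day 1 level of its culture. The day 7 over day 1 log2 fold change was 4.36 ± 1.07 in co-culture (adjusted p = 0.00535) and 4.06 ± 1.1 in monoculture (adjusted p = 0.0106). The co-culture call was lost without plate 3, the monoculture call without plate 5 or plate 7, and both with the number of probes detected as a covariate (2.97, adjusted p = 0.124, and 3.13, adjusted p = 0.0649).

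Igfals, the acid-labile subunit that hepatocytes secrete, went the other way. By plate, co-culture vehicle wells had 23.7, 22.0, 60.7 and 26.1 CPM of Igfals on day 1, then 8.81, 9.62, 11.2 and 10.7 CPM at day 3, then 5.68, 3.95, 2.08 and 2.67 CPM at day 7. Monoculture vehicle wells had 29.0, 40.8, 67.6 and 25.0 CPM on day 1, then 33.5, 16.1, 17.0 and 18.1 CPM at day 3, then 7.18, 6.4, 0.995 and 10.8 CPM at day 7. Days 1, 3 and 7 did not overlap in co-culture, and in monoculture only days 1 and 3 did. Day 7 against day 1 gave a log2 fold change of -3.14 ± 0.54 in co-culture (adjusted p = 0.000263) and -2.57 ± 0.52 in monoculture (adjusted p = 0.00134), and both calls held with each plate left out. The smaller steps were less firm. Day 3 against day 1 gave -1.64 ± 0.51 in co-culture (adjusted p = 0.0441, 9.06% of all probes) and -0.87 ± 0.5 in monoculture (adjusted p = 0.372, 2.52% of all probes). Day 7 against day 3 gave -1.5 ± 0.53 in co-culture (adjusted p = 0.0486) and -1.7 ± 0.51 in monoculture (adjusted p = 0.0287). Leaving out any 1 plate ended both of these co-culture calls, leaving out plate 1, 3 or 5 ended the monoculture one, and the covariate ended all 3. RLE scaling (adjusted p = 0.0671) and fitting with no filter (0.0621) also ended the co-culture step from day 3 to day 7.

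**Figure D1:**
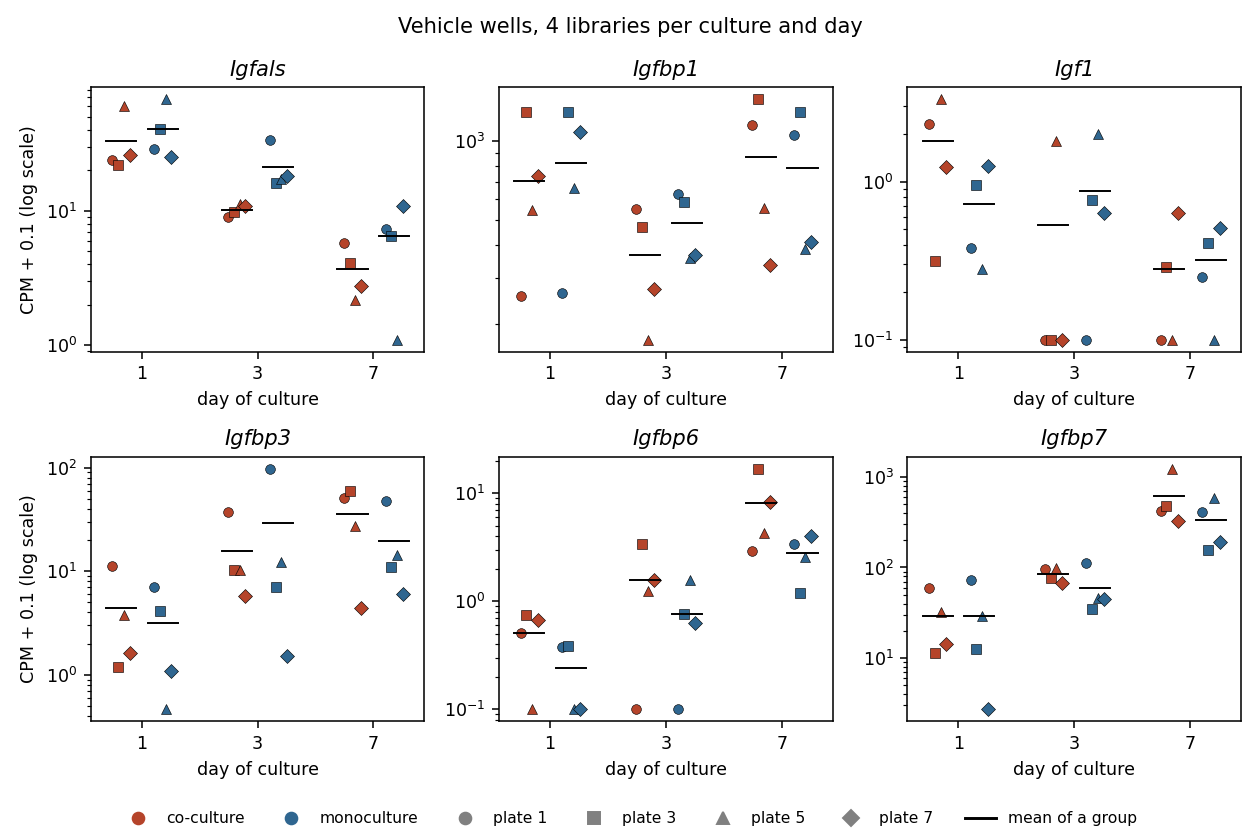
CPM + 0.1 on a log scale for 6 members in vehicle wells by day, with co-culture left of monoculture, 1 point per library, marker shape for the plate and a bar for the group mean. Igfbp7 and Igfbp6 lie highest on day 7 and Igfals lowest, while the Igfbp1 points of 1 day spread by plate.

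Igfbp3, the main IGF carrier of adult serum, rose in co-culture and varied widely between plates. Its co-culture vehicle levels were 11.1, 1.08, 3.66 and 1.52 CPM on day 1, then 36.8, 10.2, 10.1 and 5.73 CPM at day 3, then 50.4, 59.6, 27.4 and 4.27 CPM at day 7. In monoculture vehicle wells they were 6.97, 4.01, 0.365 and 0.982 CPM, then 97.1, 6.91, 12.2 and 1.42 CPM, then 47.8, 10.8, 14.1 and 5.96 CPM. The days overlapped in both cultures, and the plate 1 well stood highest in 5 of the 6 vehicle groups. The day 7 over day 1 log2 fold change was 3.05 ± 1.09 in co-culture (adjusted p = 0.0455) and 2.74 ± 1.08 in monoculture (adjusted p = 0.0704). With the plate as a block the monoculture rise passed (2.76, adjusted p = 0.00285), as did day 3 against day 1 in co-culture (2, adjusted p = 0.0375, against 0.266 without it) and monoculture (2.63, adjusted p = 0.0205, against 0.109). The monoculture day 7 rise also passed by DESeq2 (adjusted p = 0.0337), and the co-culture call was lost without plate 3 or plate 5.

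Igfbp1 showed no change over days that passed by edgeR in vehicle wells alone, while DESeq2 called its co-culture step from day 3 to day 7 (1.37, adjusted p = 0.0461). Its levels by plate in co-culture vehicle wells were 255, 1289, 544 and 733 CPM on day 1, then 552, 470.4, 174 and 271 CPM at day 3, then 1157, 1445, 555 and 335 CPM at day 7. Monoculture vehicle wells held 262, 1297, 659.9 and 1081 CPM, then 629, 587, 356 and 366 CPM, then 1052, 1291, 387 and 413 CPM. The days overlapped. Day 7 against day 1 gave a log2 fold change of 0.38 ± 0.53 in co-culture (adjusted p = 0.636) and 0.06 ± 0.53 in monoculture (adjusted p = 0.949). In a fit of all 78 groups, with the change averaged over vehicle and the 12 compound doses of a culture, Igfbp1 fell between day 1 and day 3, with a log2 fold change of -0.82 ± 0.19 in co-culture (adjusted p = 0.000109, 32.5% of all probes) and -0.58 ± 0.18 in monoculture (adjusted p = 0.00763, 35.2% of all probes). In that fit it rose between day 3 and day 7, by 1.24 ± 0.19 in co-culture (adjusted p = 2.68e-09, 49.5% of all probes) and 0.88 ± 0.19 in monoculture (adjusted p = 1.72e-05, 48.2% of all probes). Day 7 against day 1 there passed in co-culture (0.42 ± 0.18, adjusted p = 0.0443, 55.0% of all probes). It did not in monoculture (0.3 ± 0.18, adjusted p = 0.157, 53.5% of all probes).

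Igfbp1 levels differed by plate. On day 7, over all wells, the plate medians were 1479 and 1213 CPM on plates 1 and 3 and 655 and 409.5 CPM on plates 5 and 7. On day 3 they were 628 and 695 CPM on plates 1 and 3, 253 and 286 CPM on plates 5 and 7, and 152 CPM on plate 9. On day 1 plate 1 was lowest, with a median of 413 CPM against 766, 625 and 947 CPM on plates 3, 5 and 7. On day 7 the 4 vehicle wells of plates 1 and 3 held 1052 to 1445 CPM and the 4 of plates 5 and 7 held 335 to 555 CPM, without overlap. What a plate stands for beyond its number in the sample titles is not given there, and its part in the spread was not tested.

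**Figure D2:**
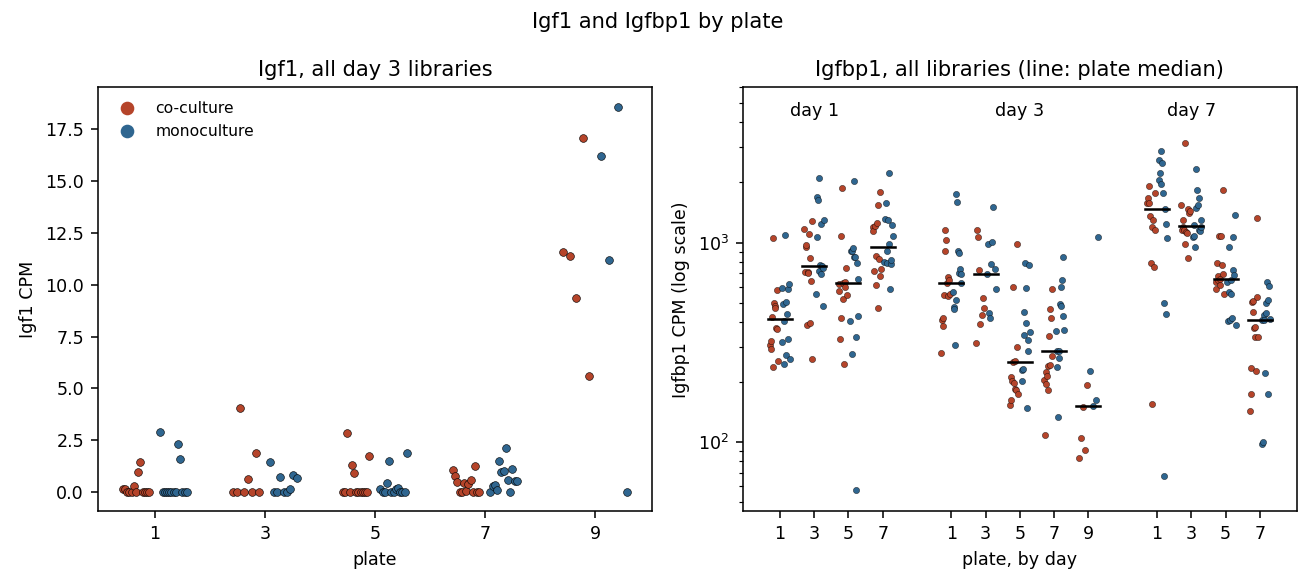
Left, Igf1 CPM in every day 3 library by plate. Right, Igfbp1 CPM on a log scale in every library by plate and day with the plate median as a bar. Co-culture points are left of monoculture points. Of the 9 plate 9 libraries, 8 exceed 5 CPM of Igf1, and Igfbp1 medians on day 7 run from 1479 CPM on plate 1 to 409.5 CPM on plate 7.

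Both ligands were scarcely read in these cultures. Igf1 counts in co-culture vehicle wells were 11, 1, 29 and 6 on day 1, 0, 0, 6 and 0 on day 3 and 0, 1, 0 and 5 on day 7, by plate. In monoculture vehicle wells they were 2, 6, 1 and 7, then 0, 3, 9 and 3, then 1, 2, 0 and 3. The highest of these was 3.22 CPM, and the probe did not pass the filter in the vehicle fit. In the fit of all 78 groups Igf1 fell between day 1 and day 7, with log2 fold changes of -3.24 ± 0.52 in co-culture (adjusted p = 1.14e-08, 55.0% of all probes) and -2.92 ± 0.5 in monoculture (adjusted p = 6.5e-08, 53.5% of all probes). Igf1 passed the filter of days 1 and 3 and not that of day 7, so that it could hardly have been called higher on day 7. Igf2 was at 0 in 228 of 311 libraries and reached 2.13 CPM at most. In vehicle wells its counts were 0 in all 4 day 1 co-culture wells, at most 3 in 1 day 3 well and at most 5 in 1 day 7 well of that culture, and 0 to 4 in monoculture. A count of 0 covers counting error only and allows up to 3 counts in a library, so that the absence of Igf2 RNA was not shown.

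Igf1 stood apart on plate 9. Of its 9 libraries, 8 held 5.58 to 18.6 CPM, and the ninth, monoculture with 1000 µM gemfibrozil, held 0. The other 95 day 3 libraries reached 4.05 CPM at most, and 50 of them were at 0. In co-culture plate 9 gave 9.35, 17.1 and 5.58 CPM at 10, 100 and 1000 µM gemfibrozil, and 11.6 and 11.4 CPM at 0.1 and 1 µM GW7647. In monoculture it gave 11.2, 18.6 and 0 CPM at the same gemfibrozil doses and 16.2 CPM at 1 µM GW7647. Igfbp6 was at 2.24 to 4.08 CPM in the 5 co-culture libraries of that plate, against a median of 0.355 CPM over all 52 day 3 co-culture libraries, and at 0 to 1.72 CPM in its 4 monoculture libraries. Igf2, Igfbp2 and Igfbp5 reached at most 0.278, 0.34 and 0.289 CPM there. The difference between plate 9 and the others was seen in the values first and has no test.

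Igfbp2 and Igfbp5 were also sparse. Igfbp2 was at 0 in 179 of 311 libraries, and its vehicle counts ran from 0 to 5 in co-culture and from 0 to 11 in monoculture. The edgeR fit of all 78 groups called Igfbp2 lower on day 3 than on day 1 in co-culture (-1.61 ± 0.44, adjusted p = 0.0019, 32.5% of all probes). That call rests on few counts, with 24 of 52 co-culture libraries at 0 on day 1 and 39 of 52 on day 3. In monoculture its SE was 6205.65, so that no change was estimated. Igfbp5, a binding protein of matrix and stroma, had vehicle counts of 0 to 5 in co-culture and 0 to 7 in monoculture. It was at 0 in 84 of 104 libraries on day 1 and on day 3 and in 28 of 103 on day 7. In the edgeR fit of all 78 groups Igfbp5 on day 7 against day 1 was at 3.87 ± 0.54 in co-culture (adjusted p = 1.07e-10, 55.0% of all probes). In monoculture it was at 3.39 ± 0.53 (adjusted p = 7.69e-09, 53.5% of all probes). Among the fits of a day Igfbp5 passed the filter only on day 7, so that a rise was the only call open to it. For day 3 against day 1 its SE was 1740.85 in co-culture and 1877.53 in monoculture, so that no change was estimated.

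Markers of other cell types moved over the same days. Of 15 stellate cell and myofibroblast marker probes tested, 14 rose from day 1 to day 7 in each culture, with a median log2 fold change of 6.44 in co-culture and 5.84 in monoculture, against 0.22 and 0.24 over all probes. Their summed level in co-culture vehicle wells was 123 to 532 CPM on day 1, then 993 to 1848 CPM at day 3 and 5710.3 to 25366 CPM at day 7. Of 14 hepatocyte marker probes 7 fell in co-culture and 6 in monoculture, with medians of -1.83 and -1.31. Hepatocyte markers summed to 50589.8 to 106574 CPM on day 1 and to 14551 to 21730.5 CPM at day 7 in co-culture, and to 45180.1 to 67323 CPM and 4713 to 29357 CPM in monoculture. Of 15 macrophage marker probes 9 rose and 2 fell in co-culture, and 6 rose and 1 fell in monoculture. In these contrasts 22.8% of all probes were called in co-culture and 22.4% in monoculture. The part of these cell types in the members' changes was not tested.

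Across the 78 group means of log2 CPM, the 3 probes most like Igfbp7 among 6933 were Col1a2, Sparc and Col6a1, with Pearson r of 0.989, 0.988 and 0.988. Collagens and the matrix protein Sparc are products of stromal cells. Igfbp6 was most like Lpl, F13a1 and Crispld2 (0.921, 0.919 and 0.919), and Igfbp3 was most like Igfbp7 itself (0.884). Igfals was most like Foxa3, a hepatocyte forkhead factor (0.907), Neurl3 (0.901) and Gstm2 (0.899). Igfbp1 had the loosest companions, Mia3 and Hdlbp at 0.755 and Hyou1 at 0.737. Igfbp7 and Igfals had an r of -0.571. These values describe 78 groups that share vehicle wells, plates and days, and carry no test.

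**Figure D3:**
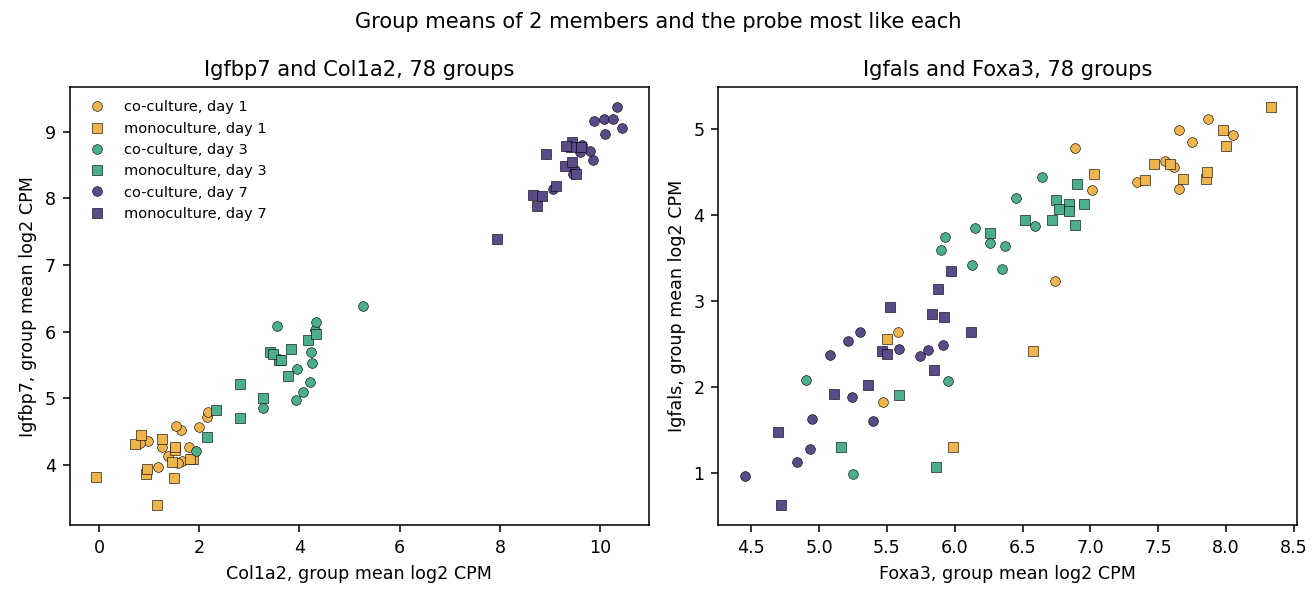
Mean log2 CPM of 78 groups for Igfbp7 against Col1a2 and for Igfals against Foxa3, with colour for the day and circles for co-culture, squares for monoculture. On the left (r = 0.989) the day 7 groups lie highest. On the right (r = 0.907) the days overlap, since some day 1 and day 3 groups at the highest doses reach down to Igfals levels of day 7 groups.

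Among receptors and partners of the axis, the signalling receptor Igf1r rose between day 1 and day 7 in both cultures, and Insr and Igf2r did not pass in that comparison. Igf1r averaged 0.428, 2.36 and 23.6 CPM on days 1, 3 and 7 in co-culture vehicle wells and 0.969, 1.48 and 22.5 CPM in monoculture. Its day 7 over day 1 log2 fold change was 5.52 in co-culture (adjusted p = 0.000742) and 4.6 in monoculture (adjusted p = 0.00226). Insr was lower on day 7 than on day 3 in co-culture (-0.98 ± 0.27, adjusted p = 0.0164). Of 9 probes tested for proteases of binding proteins and their inhibitors, 4 rose and 1 fell in co-culture and 5 rose and 1 fell in monoculture. Those that rose included Adam12 (log2 7.29 in co-culture and 6.06 in monoculture), Mmp2 (5.99 and 7.25) and Adamts1 (5.43 and 4.9), and the one that fell was Plg, the plasminogen gene of hepatocytes (-3.98 and -3.55). Of 9 probes of the growth hormone arm 1 rose and 1 fell in co-culture and 1 fell in monoculture. Of 17 probes listed for insulin and IGF signalling 3 rose and 2 fell in co-culture and 2 rose and 1 fell in monoculture. Pdk1 was lower in both (-2.2 and -1.92), but this symbol is that of pyruvate dehydrogenase kinase 1. The signalling kinase is Pdpk1, listed separately, so that the Pdk1 calls should not be read as insulin or IGF signalling. The counts of these growth hormone and signalling lists were near or below the 22.8% and 22.4% of all probes called in co-culture and monoculture.

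No member passed between co-culture and monoculture with all plates in the fit and no plate block, and 2 passed with the block. In vehicle wells 0 of 18 member tests over the 3 days passed, 0 had an unadjusted p under 0.05 by edgeR's quasi-likelihood test, and DESeq2 called 0. Of all probes 0% passed on each day. The vehicle differences ran from a log2 fold change of -1.41 ± 1.66 for Igfbp2 to 1.53 ± 0.84 for Igfbp6, both on day 7 (adjusted p = 1 for all 18). Igfbp6 levels on day 7 were 2.84, 16.7, 4.17 and 8.22 CPM in co-culture and 3.29, 1.09, 2.49 and 3.93 CPM in monoculture, which overlap. With all 13 conditions of a day averaged, 0 of 18 member tests passed by edgeR and by DESeq2, and 4 had an unadjusted p under 0.05. There 0.288%, 0.126% and 0.117% of all probes passed on days 1, 3 and 7. Igfbp6 had the lowest adjusted p, at 0.11 on day 3 (log2 1.97 ± 0.53) and 0.373 on day 7 (0.76 ± 0.24). With the plate as a block 2 member tests passed: Igfbp1 on day 3 was lower in co-culture (-0.48, adjusted p = 0.00979) and Igfbp7 on day 7 was higher (0.45, adjusted p = 0.00452). In that fit 1.82%, 0.908% and 2.94% of all probes passed on days 1, 3 and 7. Without plate 1, Igfbp6 on day 7 was called higher in co-culture (1.04, adjusted p = 0.017).

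The change over days did not differ detectably between the cultures. In 10 member tests of co-culture minus monoculture 0 passed by edgeR or DESeq2 and 0 had an unadjusted p under 0.05, with 0% of all probes called. The interval of the difference for day 7 against day 1 was -1.01 to 2.66 on the log2 scale for Igfbp7 and -1.96 to 0.82 for Igfals, which leaves room for a difference of several fold in Igfbp7.

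Igfals had 6 of the 7 member calls against vehicle. It was lower than vehicle on day 1 and on day 3 at the highest dose of gemfibrozil, ketoconazole and phenobarbital, 3.78 to 5.74 times lower with both cultures averaged. On day 7, when the vehicle level itself was low, no contrast passed, and GW7647 passed on no day. Over 36 contrasts of dose against vehicle, 7 of 216 member tests passed, all of them lower: 6 for Igfals and 1 for Igfbp6. Over the same contrasts 2.99% of all probe tests passed. With the plate as a block 14 member tests passed, 6 for Igfals and 8 for Igfbp1, Igfbp3, Igfbp6 and Igfbp7, and 4.63% of all probe tests.

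At 1000 µM gemfibrozil on day 1 Igfals was at 2.08, 11.9, 2.81 and 16.5 CPM in co-culture and 0, 3.83, 1.53 and 15.0 CPM in monoculture, by plate, below all 8 vehicle wells, which held 22.0 to 67.6 CPM. The log2 fold change was -2.46 ± 0.44 (adjusted p = 4.65e-05, 17.4% of all probes). At 30 µM ketoconazole on day 1 it was at 0, 6.01, 9.72 and 7.47 CPM in co-culture and 3.68, 13, 2.29 and 8.5 CPM in monoculture, again below every vehicle well, with a log2 fold change of -2.52 ± 0.44 (adjusted p = 1.38e-05, 17.3% of all probes). At 10 mM phenobarbital on day 1 it was at 15.2, 9.67, 7.04 and 6.44 CPM in co-culture and 8.6, 6.55, 3.3 and 3.28 CPM in monoculture, with -2.31 ± 0.43 (adjusted p = 5.55e-05, 17.0% of all probes). Set against the vehicle well of the same plate and culture, Igfals was lower in 8 of 8 pairs for each of these compounds. At 1 µM GW7647 on day 1 it was at 31.8, 36, 22.6 and 21.1 CPM in co-culture and 24.6, 28.9, 47.1 and 28.9 CPM in monoculture, which overlapped the vehicle wells (log2 -0.29 ± 0.41, adjusted p = 1, 0.352% of all probes).

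Igfals was lower with the same compounds on day 3. At 1000 µM gemfibrozil it was at 2.96, 0.226, 7.52 and 0.798 CPM in co-culture (plates 1, 5, 7 and 9) and 1.06, 5.25, 1.24, 13.4 and 4.18 CPM in monoculture (plates 1, 3, 5, 7 and 9), below the vehicle wells of each culture, 8.81 to 11.2 CPM and 16.1 to 33.5 CPM. The log2 fold change was -1.92 ± 0.43 (adjusted p = 0.00128, 20.2% of all probes). At 30 µM ketoconazole it was at 4.35, 1.62, 5.75 and 5.4 CPM in co-culture and 0, 2.23, 3.1 and 6.83 CPM in monoculture, with -2.01 ± 0.44 (adjusted p = 0.0036, 3.18% of all probes). At 10 mM phenobarbital it was at 3.99, 6.64 and 2.23 CPM in co-culture and 2.28, 2.25 and 1.94 CPM in monoculture (plates 1, 5 and 7 in both), with -2.27 ± 0.5 (adjusted p = 0.000768, 12.7% of all probes). Plate 3 gave vehicle wells but no 10 mM phenobarbital library on day 3, which holds for every member in that contrast. Igfals was lower than the vehicle well of its plate in 7 of 7, 8 of 8 and 6 of 6 pairs for gemfibrozil, ketoconazole and phenobarbital. At 1 µM GW7647 it was at 11.3 to 36.6 CPM in co-culture, above the vehicle wells, and 10.5 to 20.0 CPM in monoculture (log2 0.27 ± 0.41, adjusted p = 0.761, 0.290% of all probes). The gemfibrozil call was lost without plate 5 (adjusted p = 0.0805), the ketoconazole call without plate 1, 3 or 5 (0.124, 0.06 and 0.0644) and the phenobarbital call without plate 7 (0.0555).

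For phenobarbital the labels conflict. The 33 monoculture libraries described as phenobarbital carry ketoconazole as their compound label and were grouped by their description. With them left out, phenobarbital rests on co-culture alone, and the Igfals log2 fold change was -1.76 on day 1 (adjusted p = 0.0837) and -1.23 on day 3 (adjusted p = 0.293). Fitted within a culture, the day 1 values were -1.96 ± 0.6, -2.5 ± 0.62 and -1.76 ± 0.6 for gemfibrozil, ketoconazole and phenobarbital in co-culture and -2.97 ± 0.63, -2.55 ± 0.62 and -2.86 ± 0.63 in monoculture. The adjusted p were 0.0603, 0.0108 and 0.0866 in co-culture and 0.0044, 0.00617 and 0.00233 in monoculture. On day 3 they were -1.78 ± 0.63, -1.25 ± 0.62 and -1.21 ± 0.67 in co-culture, of which none passed, and -2.06 ± 0.58, -2.76 ± 0.64 and -3.33 ± 0.74 in monoculture, of which the ketoconazole (adjusted p = 0.0321) and phenobarbital (0.00427) values passed. The difference between cultures was tested for every dose and day: 0 of 216 member tests passed by edgeR or by DESeq2 and 3 had an unadjusted p under 0.05. Of all probes 0% passed in each of these contrasts except ketoconazole 30 µM on day 7, where 0.0219% did.

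On day 7 Igfals was at 0.759 to 8.92 CPM with gemfibrozil, 1.82 to 27.4 CPM with GW7647, 0 to 6.81 CPM with ketoconazole and 0 to 6.96 CPM with phenobarbital, against 0.995 to 10.8 CPM in vehicle wells, all overlapping. The 0 with ketoconazole was the monoculture library of plate 1, the shallowest of the series at 412414 counts, so that it sets only a loose floor. The log2 fold changes were -0.38 ± 0.53, 0.7 ± 0.51, -0.69 ± 0.52 and -0.63 ± 0.51, with adjusted p of 1, 1, 0.547 and 0.507. Over all probes 0%, 0.0219%, 0.518% and 6.09% passed. Among the 28 member tests of day 7 at the highest doses 0 passed by edgeR, 3 had an unadjusted p under 0.05, and DESeq2 called 1. The response on day 7 was set against that on day 1 in a comparison added after the values were seen. Igfals differed by 2.14 ± 0.86 for gemfibrozil (adjusted p = 0.371), 1.9 ± 0.85 for ketoconazole (0.346) and 1.72 ± 0.84 for phenobarbital (0.717), so that a weaker response on day 7 was not shown. In those contrasts 0.0142%, 0.185% and 0.0570% of all probes passed, and 0% for GW7647. Of 32 member tests 0 passed by edgeR or DESeq2 and 6 had an unadjusted p under 0.05.

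The doses were not matched across compounds. In contrasts against 1 µM GW7647, also added after the values were seen, Igfals was lower on day 1, at -2.17 ± 0.43 with gemfibrozil (adjusted p = 0.000374, 11.7% of all probes), -2.23 ± 0.43 with ketoconazole (7.71e-05, 17.4%) and -2.02 ± 0.43 with phenobarbital (0.000481, 14.0%). On day 3 the values were -2.19 ± 0.42 (0.000313, 5.95%), -2.27 ± 0.44 (0.000231, 5.31%) and -2.53 ± 0.5 (0.00018, 12.9%). All 6 calls held in the alternatives run for these contrasts, which did not include leaving out the libraries with conflicting labels. On day 7, 0 of the 21 member tests passed by edgeR or DESeq2 and 5 had an unadjusted p under 0.05, with Igfals at -1.08 ± 0.54, -1.39 ± 0.53 and -1.33 ± 0.52 and 0.00730%, 2.55% and 15.1% of all probes called. Without plate 7 the ketoconazole value passed (-2.19, adjusted p = 0.0394). Igf1 on day 3 also passed as lower with phenobarbital than with GW7647 (adjusted p = 0.0323), which was lost without plate 1, 5, 7 or 9 (adjusted p = 0.114, 0.134, 0.099 and 0.265) and with the plate as a block (0.105). With the block, Igfbp1 on day 3 passed as higher than with GW7647 for gemfibrozil (1.16, adjusted p = 0.000974) and phenobarbital (1.32, 0.000415). Igfbp7 passed with it as lower for ketoconazole (-1.13, 0.0351) and phenobarbital (-1.16, 0.0297) on day 3 and for phenobarbital on day 7 (-0.73, 0.0335).

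**Figure D4:**
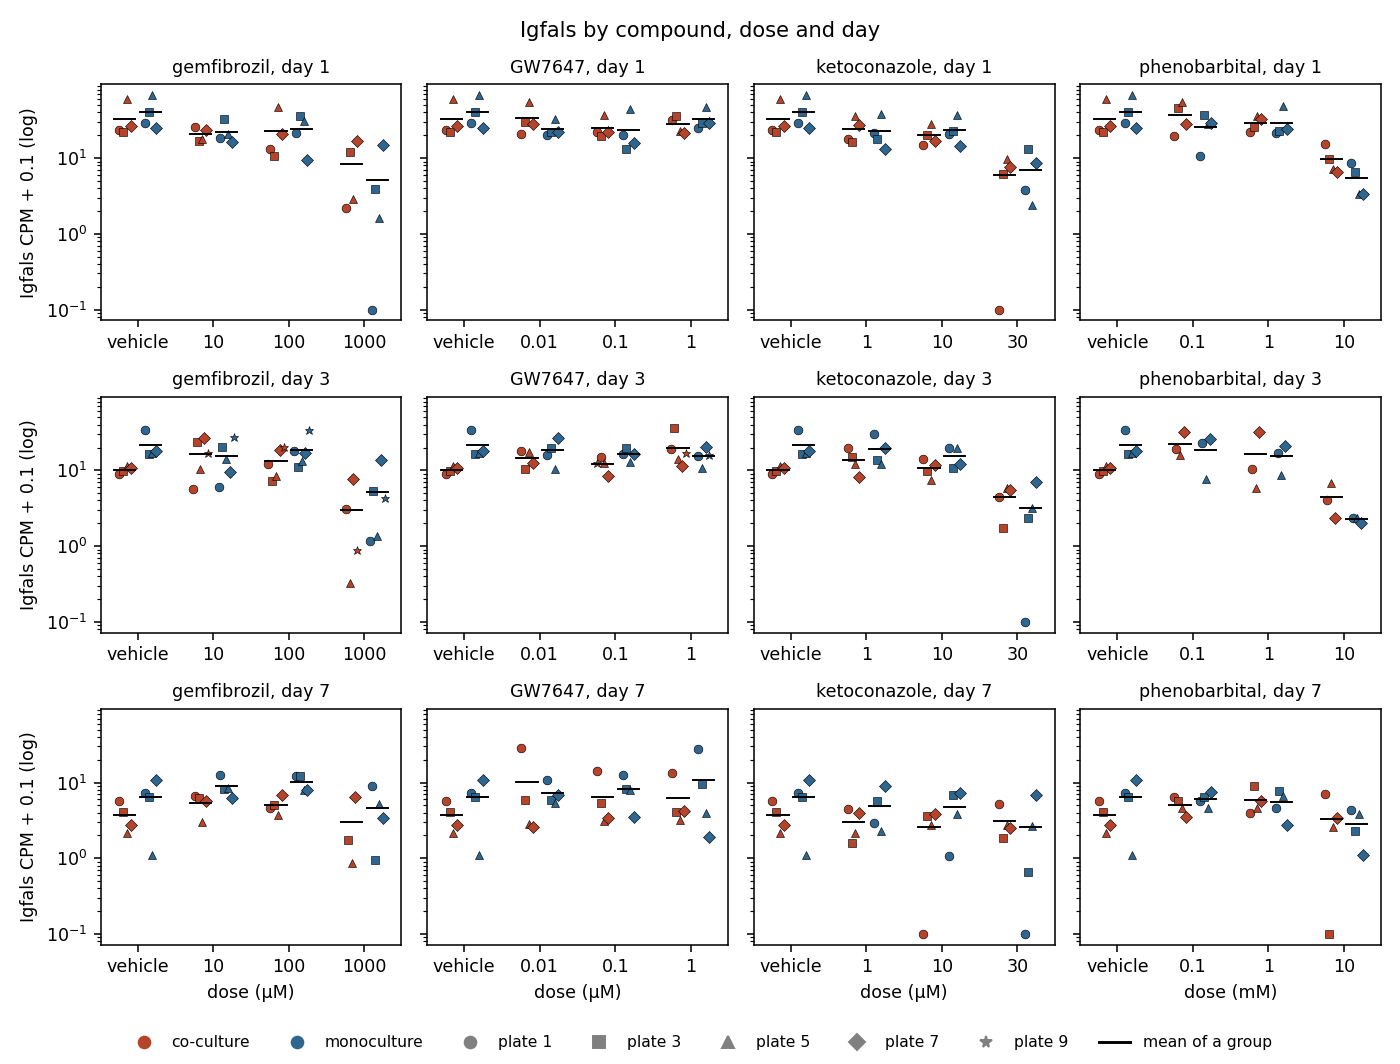
Igfals CPM + 0.1 on a log scale by dose, with columns for the compound and rows for the day, 1 point per library, co-culture left of monoculture, and bars for group means. The highest dose of gemfibrozil, ketoconazole and phenobarbital lies below vehicle on days 1 and 3, with 0 to 16.5 CPM on day 1 against 22.0 to 67.6 CPM in vehicle wells.

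Lower doses moved no member past the threshold. In 24 contrasts 0 of 144 member tests passed by edgeR or DESeq2, and 1 had an unadjusted p under 0.05. Igfals ran from -0.79 to 0.78 on the log2 scale with a lowest adjusted p of 0.267. Of all probes 0% passed in 18 of these contrasts. In the others 15.0% passed for gemfibrozil 100 µM on day 1, 0.0160% and 0.136% for GW7647 0.01 and 0.1 µM on day 1, 0.112% for ketoconazole 10 µM on day 1, 0.0521% for GW7647 0.1 µM on day 3 and 0.0219% for ketoconazole 10 µM on day 7. Of the day 3 co-culture libraries described as GW7647 0.1 µM, 3 carry a label of 1 µM.

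Hepatocyte markers were read in the same contrasts. On day 1, 5 of 15 hepatocyte marker probes fell with gemfibrozil, 3 with ketoconazole and 2 with phenobarbital, with medians of -0.55, -0.61 and -0.43 against 0.1, 0.06 and 0.08 over all probes. The shares of all probes called were 17.4%, 17.3% and 17.0%, so that the ketoconazole and phenobarbital counts were near them. On day 3, 5 of 14 fell and 1 rose with gemfibrozil, 2 fell with ketoconazole and 3 with phenobarbital, with medians of -0.73, -0.5 and -0.61, where 20.2%, 3.18% and 12.7% of all probes were called. Summed hepatocyte markers on day 1 were 23785 to 33811 CPM with gemfibrozil, 27003 to 66099 CPM with ketoconazole and 21882 to 52788 CPM with phenobarbital in co-culture, against 50589.8 to 106574 CPM in vehicle wells. In monoculture they were 22542 to 85025, 11225 to 64856 and 17229 to 122927 CPM against 45180.1 to 67323 CPM, overlapping for each compound. The part of hepatocyte number or state in the Igfals values was not tested.

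Igfbp6 was called lower with 10 mM phenobarbital on day 3, on very few counts. The 6 phenobarbital libraries held 1 count in all, against 35 in the 8 vehicle libraries, a ratio of 0.0232 after scaling with an exact 95% interval of 0.000571 to 0.138 for counting error alone. The adjusted p was 0.0357, and the call was lost without plate 1, 3, 5 or 7, with no filter and with conflicting labels left out. On day 7 Igfbp6 with phenobarbital was at 1.66, 2.49, 0.82 and 2.1 CPM in co-culture and 0.865, 2.16, 0.0756 and 0.666 CPM in monoculture, against 2.84 to 16.7 CPM and 1.09 to 3.93 CPM in vehicle wells. The groups did not overlap in co-culture and did in monoculture. The log2 fold change was -1.85 ± 0.61 (adjusted p = 0.0538), and it passed with the plate as a block (-1.87, adjusted p = 0.0197) and by DESeq2 (-1.84, adjusted p = 0.0178). With both cultures averaged, 8 of 14 stellate cell and myofibroblast marker probes also fell with phenobarbital on day 3, where 12.7% of all probes were called. Their median was -2.11. In co-culture their summed level was 112 to 515 CPM against 993 to 1848 CPM in vehicle wells.

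Igfbp7 and Igfbp3 passed in no compound contrast with all plates in the fit and no block. On day 3 Igfbp7 stood at -1.02 ± 0.44 with gemfibrozil, -1.07 ± 0.45 with ketoconazole and -1 ± 0.5 with phenobarbital (adjusted p = 0.084, 0.197 and 0.174). Without plate 7 the gemfibrozil value passed (-1.25, adjusted p = 0.0456). With the block ketoconazole (-1.19, adjusted p = 0.0219) and phenobarbital (-1.22, adjusted p = 0.0197) passed. It was lower than the vehicle well of its plate in 6 of 7, 8 of 8 and 5 of 6 pairs. Igfbp3 with phenobarbital on day 3 was at -1.97 ± 1.1 (adjusted p = 0.233), and with the block at -1.57 (adjusted p = 0.0386).

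Igfbp1 passed in no compound contrast in the fit without a block or covariate, and with the plate as a block it passed as higher with gemfibrozil on days 1 and 3 and with phenobarbital on day 3. On day 3 gemfibrozil wells held 1160.1, 599.8, 242 and 193 CPM in co-culture (plates 1, 5, 7 and 9) and 1760.5, 778, 790.3, 265 and 1062 CPM in monoculture (plates 1, 3, 5, 7 and 9), against vehicle wells of 174 to 552 CPM and 356 to 629 CPM. The log2 fold change was 0.77 ± 0.42 (adjusted p = 0.176) and with the block 1.08 (adjusted p = 0.00333). Of 7 pairs on a plate 5 were higher and 2 lower. Phenobarbital wells on day 3 held 646, 982 and 584 CPM in co-culture and 695, 771 and 851 CPM in monoculture, above all vehicle wells of their culture. The log2 fold change was 0.83 ± 0.46 (adjusted p = 0.228) and with the block 1.24 (adjusted p = 0.000904), and 6 of 6 pairs on a plate were higher. With the number of probes detected as a covariate both compounds passed on day 3 as well (1.02, adjusted p = 0.0491, and 1.21, adjusted p = 0.0297). On day 1 gemfibrozil gave 0.65 ± 0.4 (adjusted p = 0.259), with the block 0.94 (adjusted p = 0.0238). There 5 of 8 pairs were higher and 3 lower, with log2 ratios from -0.85 to 2.04. Ketoconazole on day 1 gave -0.85 ± 0.4 (adjusted p = 0.134), lower in 6 of 8 pairs, and passed with that covariate (-1.04, adjusted p = 0.0355). Over all 12 contrasts at the highest doses Igfbp1 ran from -0.85 to 0.88.

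Igf1, Igfbp2 and Igfbp5 were tested where they passed the filter and were called in none of the contrasts with vehicle. Igf1 ran from -3.22 to 2.6 on the log2 scale over 8 contrasts at the highest doses (lowest adjusted p = 0.105), where the highest value was GW7647 on day 3, with plate 9 among its libraries. Summed Igf1 counts on day 3 were 3 with phenobarbital, against 21 in vehicle wells, a ratio of 0.116 with an exact 95% interval of 0.0222 to 0.388 for counting error. Igfbp2 ran from -1.88 to 2.23 and Igfbp5 from 1.16 to 2.4 over the 4 day 7 contrasts (lowest adjusted p = 0.317 for both). Of 18 member tests at 1 µM GW7647 over 3 days, 0 passed by edgeR or DESeq2 and 0 had an unadjusted p under 0.05.

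**Figure D5:**
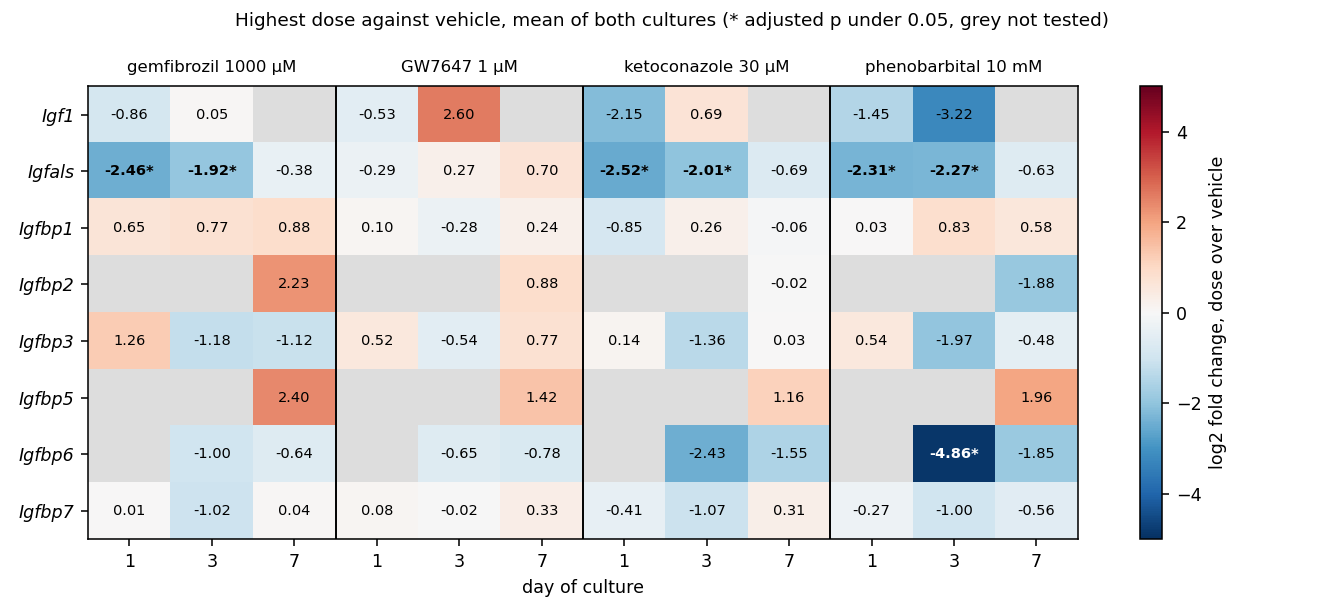
Log2 fold changes of 8 members at the highest dose of each compound over vehicle, averaged over both cultures, by day, with asterisks for an adjusted p under 0.05 and grey for members that did not pass the filter. Igfals carries 6 of the 7 asterisks, at -1.92 to -2.52, and Igfbp6 the other.

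Partners of the axis at the highest doses moved in a few places, and the values named passed edgeR's test. The insulin receptor Insr rose with 10 mM phenobarbital on each day, by 1.17, 0.83 and 1.45 on days 1, 3 and 7 (adjusted p = 7.47e-06, 0.0296 and 0.000244), and with 30 µM ketoconazole on day 1 by 0.89 (adjusted p = 0.000473). Hnf4a, a master regulator of hepatocyte genes, fell on day 1 with gemfibrozil (-1.48) and ketoconazole (-1.95) and on day 3 with gemfibrozil (-2.52) and phenobarbital (-1.84). Socs2, a target of growth hormone signalling, fell with ketoconazole on day 1 (-1.87) and with phenobarbital on days 1 and 3 (-1.35 and -1.77). Akt1 fell with phenobarbital on all 3 days (-1.16, -1.81 and -1.33) and with gemfibrozil on day 3 (-1.2). Irs2, an insulin receptor substrate, rose on day 1 with gemfibrozil (2.08) and phenobarbital (1.57). Of 9 growth hormone arm probes on day 1, 2 fell with gemfibrozil, 3 fell and 1 rose with ketoconazole and 1 fell with phenobarbital, against 17.4%, 17.3% and 17.0% of all probes called, so that the gemfibrozil and phenobarbital counts were near the background. Of 18 probes listed for insulin and IGF signalling 4 rose and 1 fell, 3 rose and 3 fell, and 3 rose and 2 fell with the same compounds. These probes again include Pdk1, which fell with ketoconazole (-1.03). With 1 µM GW7647 none of the receptor, growth hormone, signalling and protease lists had a call on any of the 3 days.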

How the data were processed

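The authors deposited a table of probe counts for 311 TempO-Seq libraries; per the labels' protocols BioSpyder made the count tables, and the submitters' processing notes name Bowtie, with version and genome build not given in the sources used here. Libraries were grouped by their description. The labels give biological replicates but name no animals or cell lots, so p-values measure the spread between wells. Counts of each member probe were tested with edgeR 4.0.16 (R 4.3.3): TMM scaling, filterByExpr with a minimum of 10 counts, glmQLFit and glmQLFTest, two-sided, with Benjamini-Hochberg adjustment over all probes tested and a threshold of 0.05. SE is the log2 fold change divided by the root of F. Time was fitted on the 24 vehicle libraries, and culture and compound contrasts on all groups of a day. CPM used TMM factors over all libraries. Titles name a plate (1, 3, 5, 7 or 9) and its number was taken as the replicate number. Residuals of libraries on 1 plate correlated on average by 0.197, 0.169 and 0.261 on days 1, 3 and 7, against -0.065, -0.0457 and -0.0866 across plates, and fits with the plate as a block are given beside results they change. Among 471 replicate pairs 0 were identical. DESeq2 1.42.0, RLE scaling, no filter, leaving out plates, shallow libraries or conflicting labels, and, added after the data were seen, the number of probes detected as a covariate, were alternatives. Contrasts with GW7647 and of the day 7 with the day 1 response were also added then. Members and lists were chosen with earlier results of these data known. Every member is named, partners are named up to 6 per comparison by the smallest adjusted p, and the receptors' day 7 over day 1 changes, a choice made after their values were seen. Companions are the 3 probes with the highest correlation. The fits were also run on simulated counts with 1 common spread for all probes and no plate effect. That run cannot show how the fits behave where plates differ. Intervals and floors cover counting error only.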

Additional observations from a re-analysis of the deposited data

Results flagged for a closer look

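Dixon's ratio is the gap of an extreme library to its neighbour over the range of its group. It passed its 95% critical value in 18 of 81 sets of 1 member in 1 group. Sets of Igf1 were taken only from groups with a plate 9 library, so that this count cannot be set against a chance rate. For Igf1 on day 3 the plate 9 library was the high one in 7 groups. In co-culture it held 11.6 CPM against 0.756 CPM for the next library with GW7647 0.1 µM (ratio 0.935), 11.4 against 2.84 CPM with 1 µM (0.751), 17.1 against 1.3 CPM with gemfibrozil 100 µM (0.924) and 5.58 against 0.904 CPM with 1000 µM (0.881). In monoculture it held 16.2 against 0.336 CPM with GW7647 1 µM (0.979), 11.2 against 0.427 CPM with gemfibrozil 10 µM (0.962) and 18.6 against 1.49 CPM with 100 µM (0.92). With gemfibrozil 1000 µM in monoculture a library of another plate was high, at 0.972 against 0 CPM (1).

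For Igfals the plate 5 library was high in day 1 co-culture vehicle wells (60.7 against 26.1 CPM, ratio 0.895). The plate 1 library was high in day 3 monoculture vehicle wells (33.5 against 18.1 CPM, 0.885) and with GW7647 1 µM in day 7 co-culture (13.2 against 4.14 CPM, 0.898). Igfbp1 was high in 1 library with GW7647 1 µM on day 3, in co-culture (1161 against 382 CPM, 0.738) and in monoculture (464 against 238 CPM, 0.952), and low in 1 library with ketoconazole 30 µM in day 7 co-culture (336 against 1083 CPM, 0.872). Igfbp3 in day 3 vehicle wells was high on plate 1 in co-culture (36.8 against 10.2 CPM, 0.857) and in monoculture (97.1 against 12.2 CPM, 0.888). Igfbp7 was high in 1 vehicle library of day 7 co-culture (1226 against 472 CPM, 0.837) and of day 3 monoculture (112 against 45.4 CPM, 0.863).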

How the results depend on the processing

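Member calls over time in vehicle wells numbered 12, where 2.52% to 22.8% of all probes were called per contrast. They changed to 34 in the fit of all 78 groups, which tests more members and called 32.5% to 55.0% of all probes. They were 7 with the number of probes detected as a covariate and 5 to 9 with a plate left out, and the cause was not tested. DESeq2 and the plate block each gave 16, and the block called 4.88% to 29.4% of all probes. Calls of culture over all wells went from 0 (0.117% to 0.288% of all probes) to 2 with the plate block (0.908% to 2.94%), and leaving out a plate gave 0 to 1. Compound calls numbered 7 (2.99% of all probe tests) and were 14 with the plate block (4.63%) and 11 with the covariate. They were 4 with conflicting labels left out, which removes phenobarbital monoculture, and 4 to 7 without a plate. Direct contrasts with GW7647 gave 7 calls (0.00730% to 17.4% of all probes per contrast) and 11 with the plate block (0.0146% to 24.9%). They gave 11 with the covariate and 6 to 9 without a plate. Shares of all probes in the other alternatives are not given here. No named member value changed sign under an alternative where either setting called it. With the plate as a block no other call changed beyond those printed with the results. The calls of Igfbp7 and Igfals for day 7 against day 1, and of Igfals on day 1 with gemfibrozil and ketoconazole, held in every alternative run. RLE scaling moved the median of all probes by more than 0.1 in 14 of 57 comparisons (-0.18 to 0.17). Depth limits Igf1, Igf2, Igfbp2, Igfbp5 and Igfbp6, which had few counts per library.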
